A study of Mus musculus with 15 samples.

Results

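Expression of 40 genes of fatty acid and triglyceride metabolism was followed in LSZ2 and LSZ4, a pair of mouse non-small cell lung cancer lines, after knockdown of Siva. The genes were chosen by name for their place in the pathway, from the supply of acetyl-CoA to triglyceride breakdown, with earlier results of these data known. Of the 40 genes, 37 gave a probe bright enough to test, among 22917 genes tested in all. The other three, Elovl3, Elovl4 and Thrsp, stayed at background level on all 15 arrays. The study asked what Siva, a target gene of p53, does in tumour cells.

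Cells grown in DMEM with 10% serum carried 1 of 4 short hairpin RNAs, delivered by virus made in 293T cells. Controls were shGFP in the pLKO.1 vector and shLacZ in the LL37 vector, hairpins against sequences that mouse cells do not hold. Hairpins shSiva1 and shSiva2, both in pLKO TRC2.0, target Siva. Puromycin was given for 3 days to every group but the shLacZ cells, and RNA was taken 2 days after plating. There were 2 arrays for each hairpin in each line, but only 1 for shGFP in LSZ2. This made 7 control arrays and 8 shSiva arrays, 4 for each Siva hairpin. Nothing in the labels says that replicate arrays came from separate cultures, so p-values measure the spread between these arrays, which may be technical. The number of arrays limits the precision. RNA from a whole culture was measured, so fewer cells of a kind and less RNA per cell cannot be told apart.

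Values are log2 of the array's processed signal relative to the 75th percentile of that array, so a difference of 1 is a doubling. That percentile ran from 428 to 1029 intensity units and 0 spots were saturated. The share of spots that the scanner software marked as well above background was 49.0% to 60.6%. Controls shared 1 slide and the shSiva arrays a second, and the vectors differed, so slide, vector and Siva knockdown cannot be told apart. The hairpins also lay in different rows of their slides, which cannot be told apart from the hairpin either. Siva1 fell by 2.52 (SE 0.26, limma adjusted p = 3.19e-05) over both lines, to 13.0% of control with shSiva1 and 23.4% with shSiva2. The difference between these hairpins was 0.84 (SE 0.29, limma adjusted p = 0.0534). Of the 5 markers of epithelium, Krt8, Krt18, Krt19 and Cdh1 were well above background on all 15 arrays and Epcam on 14. Of the 5 fibroblast markers, Col1a2 was on all 15, Col3a1 on 8, Col1a1 on 5, Pdgfra on 1 and Pdgfrb on 0. Of the 5 markers of blood and endothelium, Pecam1 was on all 15, Ptprc on 8, Cd68 on 3, and Lyz2 and Cdh5 on 0. Of the 5 lung markers, Sftpd and Scgb1a1 were on all 15, Sftpb on 11, and Nkx2-1 and Sftpc on 0. Of the 4 liver markers, Alb and Apoa1 were on 0, Ttr on 6 and Serpina1a on 8. Of the 6 adipocyte markers, Adipoq, Lep, Plin1 and Cfd were on 0, Fabp4 on 1 and Cidec on all 15, and the summed linear level of the list, relative to the 75th percentile, was 1.43 to 3.13 in controls, 1.18 to 2.11 with shSiva1 and 0.525 to 0.807 with shSiva2. Cidec, at log2 values of 0.48 to 1.62 in controls and −1.11 to 1.04 with the Siva hairpins, makes up most of that sum. The sum thus mainly follows this gene, which is named again below among the droplet genes. The part of these markers in the results was not tested.

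Cells make fatty acids in the cytosol from acetyl-CoA. Acetyl-CoA carboxylase forms malonyl-CoA, fatty acid synthase builds palmitate from it, and elongases and desaturases lengthen the chain or add double bonds. Acyl-CoA synthetases activate fatty acids, and acyltransferases and lipin phosphatases then join them to glycerol to give triglyceride, which is stored in lipid droplets and released by lipases. Carnitine palmitoyltransferases pass fatty acids into mitochondria to be burned, and malonyl-CoA blocks that entry. Tumour cells often make fatty acids even where blood could supply them. Transcription factors of the basic helix-loop-helix kind, among them Mlxipl (ChREBP), the glucose sensor of lipid synthesis, bind E-boxes, whose core letters are often CACGTG.

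Promoter sequence came from RefSeq (GRCm38.p6), as windows of 250 bases before to 50 after a gene's start, for 33 of the 40 genes. Scd1, Scd2, Dgat1, Dgat2, Mogat2, Elovl3 and Fads1 had none. The letters CACGTG, which read the same on both strands, were searched for after the values had been seen. They were found in 8 of the 33 genes. The first 5 stretches are those of genes that rose with shSiva1, with the E-box in capitals. The last holds the bases just upstream of Fasn, shown because Fasn differed between the Siva hairpins, with CCAAT on either strand in capitals.
Mgll, chr6:88724356-88724385, plus strand: gggggccgggcaCACGTGgggccccggcgc
Mlxipl, chr5:135089780-135089809, plus strand: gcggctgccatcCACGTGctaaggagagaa
Plin2, chr4:86670046-86670075, minus strand: cagctgggctatCACGTGgctcggaggctt
Lpin3, chr2:160880680-160880709, plus strand: gcctgtttctgcCACGTGgctcacagctca
Lpin2, chr17:71183511-71183540, plus strand: cggagctcgcgtCACGTGgccgggccgggg
Fasn, chr11:120824548-120824667, minus strand: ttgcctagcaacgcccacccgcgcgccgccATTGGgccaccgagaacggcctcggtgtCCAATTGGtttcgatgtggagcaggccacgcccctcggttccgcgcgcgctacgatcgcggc

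The E-box began 44 bases before the start of Mgll, 98 before Mlxipl, 4 before Plin2, 9 before Lpin2, and at base 23 after the start of Lpin3. Of the 8 genes that rose with shSiva1, 5 held CACGTG in a window, and of the 9 that fell, 0 of the 5 with a window did. Mgll, among the genes holding it, was tested through the shSiva1 arrays alone. Some genes have more than 1 window and so more bases to match, among them Mgll, Mlxipl and Lpin3 with 2 and Lpin2 with 3. Over all RefSeq genes with a window 8.09% held it. Among all tested genes with a window the share was 11.0%, against 9.46% of all genes that rose with shSiva1 and 10.6% of all that fell. CCAAT, the box bound by NF-Y, was in 20 of the 33 genes, beside 41.1% of all RefSeq genes with a window and 42.6% of those tested. It was in 5 of the 8 genes that rose with shSiva1 and in 5 of the 5 that fell and had a window. The sterol element core CACNCCAC, searched on both strands, was in 6 of the 33, beside 7.12% and 7.57%. These matches describe letters in a window and say nothing of binding.

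Over both lines and both Siva hairpins, Elovl1, Cpt1a, Scd1 and Dgat2 fell and Acacb rose. Thus 5 of the 37 genes tested changed, or 13.5%, beside 9.98% of all 22917 genes (limma, adjusted p under 0.05). Over all genes 4.29% rose and 5.69% fell. The median change of the 37 was −0.11, beside −0.12 for all genes. The heatmap of all tested genes shows these values by role.

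**Figure D1:**
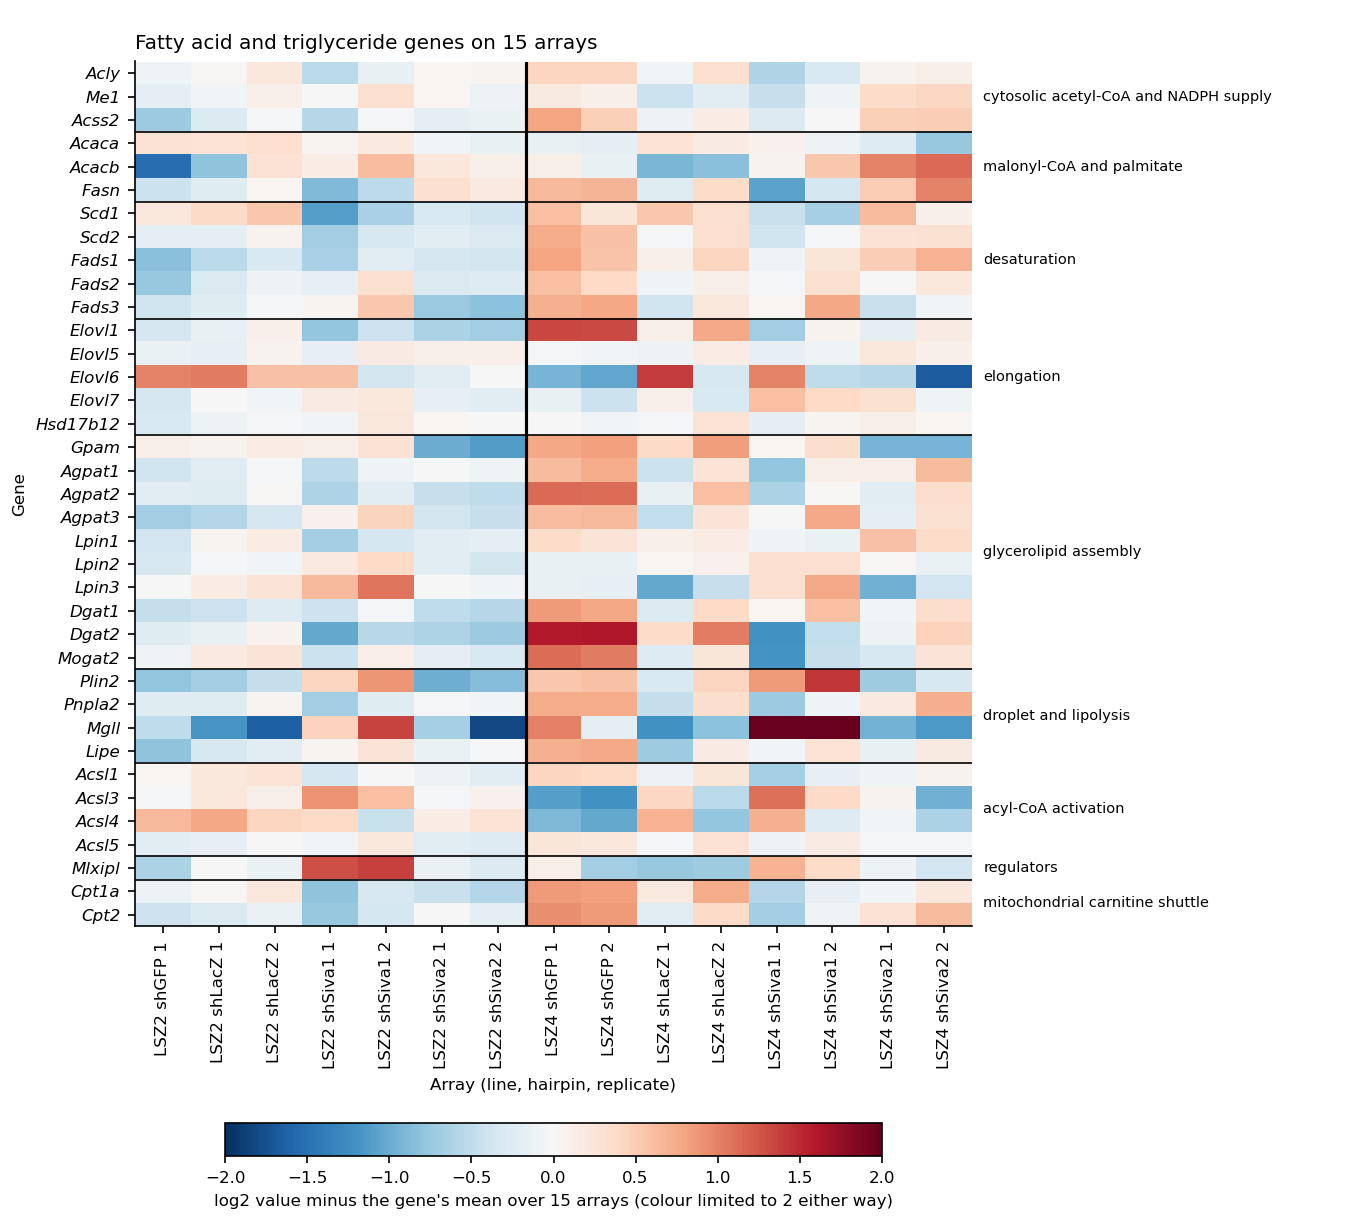
Heatmap of the 37 tested genes, in rows grouped by role, on the 15 arrays, in columns by line, hairpin and replicate. Colour is the log2 value less the gene's own mean over the arrays. Mgll, Plin2 and Mlxipl were high on the 4 shSiva1 arrays, and Gpam was low on the 4 shSiva2 arrays.

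Dgat2, the acyltransferase that adds the last fatty acid in triglyceride synthesis, fell most among the genes called in the pooled comparison. In LSZ2, Dgat2 read 3.76 with shGFP, 3.86 and 4.08 with shLacZ, 2.99 and 3.45 with shSiva1, and 3.39 and 3.28 with shSiva2. Dgat2 in LSZ4 read 5.59 and 5.61 with shGFP, 4.37 and 5.03 with shLacZ, 2.79 and 3.51 with shSiva1, and 3.91 and 4.47 with shSiva2. Of the 8 shSiva arrays, 7 lay below every control of their own line, and the shGFP arrays of LSZ4 stood highest. The change was −1.08 (SE 0.26, limma adjusted p = 0.0145), or 47.2% of control. Its probe lies at chr7:106302215-106302274 on the mm9 build of the array, on which every probe position here is given.

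Cpt1a, the carnitine palmitoyltransferase that limits entry of fatty acids into mitochondria, fell by 0.70 (SE 0.15, limma adjusted p = 0.00811). In LSZ2, Cpt1a read 4.24 with shGFP, 4.38 and 4.58 with shLacZ, 3.54 and 4.03 with shSiva1, and 3.91 and 3.76 with shSiva2. Cpt1a in LSZ4 read 5.20 and 5.18 with shGFP, 4.54 and 5.09 with shLacZ, 3.77 and 4.19 with shSiva1, and 4.30 and 4.57 with shSiva2. Again 7 of the 8 shSiva arrays were below every control of their line. It was read by a probe at chr19:3385374-3385433.

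Elovl1, which lengthens saturated very-long-chain fatty acids, fell by 0.79 (SE 0.20, limma adjusted p = 0.0200). In LSZ2, Elovl1 read 6.06 with shGFP, 6.25 and 6.50 with shLacZ, 5.63 and 5.98 with shSiva1, and 5.76 and 5.71 with shSiva2. Elovl1 in LSZ4 read 7.73 and 7.72 with shGFP, 6.52 and 7.16 with shLacZ, 5.70 and 6.47 with shSiva1, and 6.22 and 6.56 with shSiva2. Of the 8 shSiva arrays, 7 lay below every control of their line, the exception being LSZ4 shSiva2 replicate 2. The LSZ4 controls spread from 6.52 to 7.73. Elovl1 was read at chr4:118105163-118105222.

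Scd1, the desaturase that makes oleate from stearate, fell by 0.74 (SE 0.20, limma adjusted p = 0.0252). In LSZ2, Scd1 read 4.30 with shGFP, 4.47 and 4.62 with shLacZ, 2.98 and 3.43 with shSiva1, and 3.77 and 3.68 with shSiva2. Scd1 in LSZ4 read 4.68 and 4.32 with shGFP, 4.62 and 4.40 with shLacZ, 3.63 and 3.41 with shSiva1, and 4.71 and 4.19 with shSiva2. With shSiva1 all 4 arrays lay below every control of their line, whereas 1 shSiva2 array of LSZ4 was above every control. The call was lost without LSZ2 shLacZ replicate 1, LSZ2 shLacZ replicate 2 or LSZ4 shSiva1 replicate 2 (limma adjusted p up to 0.0619). Quantile scaling, normexp background correction and shGFP as the only control also lost it (limma adjusted p = 0.0607, 0.0508 and 0.175). The probe lies at chr19:44469387-44469446.

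Acacb, the carboxylase at the mitochondrial surface whose malonyl-CoA restrains Cpt1a, was the gene that rose, by 1.05 (SE 0.26, limma adjusted p = 0.0166). In LSZ2, Acacb read −4.02 with shGFP, −3.29 and −2.21 with shLacZ, −2.35 and −1.88 with shSiva1, and −2.28 and −2.37 with shSiva2. Acacb in LSZ4 read −2.38 and −2.64 with shGFP, −3.40 and −3.33 with shLacZ, −2.43 and −1.95 with shSiva1, and −1.50 and −1.36 with shSiva2. Controls ranged from −4.02 to −2.21 and overlapped the shSiva arrays in both lines, with 4 of 8 shSiva arrays above every control of their line. A second Acacb probe passed the background mark on 4 of 8 shSiva arrays, all of them with shSiva1, and on 0 of 7 controls. It was never above the mark with shSiva2 and was tested through the shSiva1 arrays alone. The probe used lies at chr5:114700702-114700761.

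Fasn, Acaca and Scd2, the core enzymes that make palmitate, malonyl-CoA and monounsaturated fat, did not pass the test over both hairpins. Their changes were −0.18 (SE 0.29, limma adjusted p = 0.728), −0.28 (SE 0.14, adjusted p = 0.205) and −0.33 (SE 0.15, adjusted p = 0.186). Fasn gave 0.01 without LSZ4 shSiva1 replicate 1. No pooled call survived when each line and hairpin was reduced to 1 mean, when the group was a random block, or with shLacZ as the only control: each gave 0 genes. Leaving out LSZ4 shLacZ replicate 1 gave 9.

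The calls in these genes differed between the Siva hairpins. Direct differences between the hairpins were at a rate near that of all genes. With shSiva1, 17 of the 37 genes changed, 8 up and 9 down, or 45.9%, beside 25.9% of all genes, where 10.2% rose and 15.7% fell. Mgll, counted among the 8, was tested through the shSiva1 arrays alone. With shSiva2 only Acaca, Cpt1a, Gpam and Acacb passed, or 10.8%, beside 12.2% of all genes, where 5.99% rose and 6.25% fell. Set directly against each other, the hairpins differed for 9 genes, or 24.3%, beside 19.5% of all genes. Of the 9, 2 were higher with shSiva2 and 7 lower, beside 10.1% and 9.43% of all genes. The 7 and the 24.3% include Mgll, which was testable only because it was bright with shSiva1. Both hairpins were compared with the same 7 controls, so their values are given side by side. The plot of change by hairpin shows each gene.

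**Figure D2:**
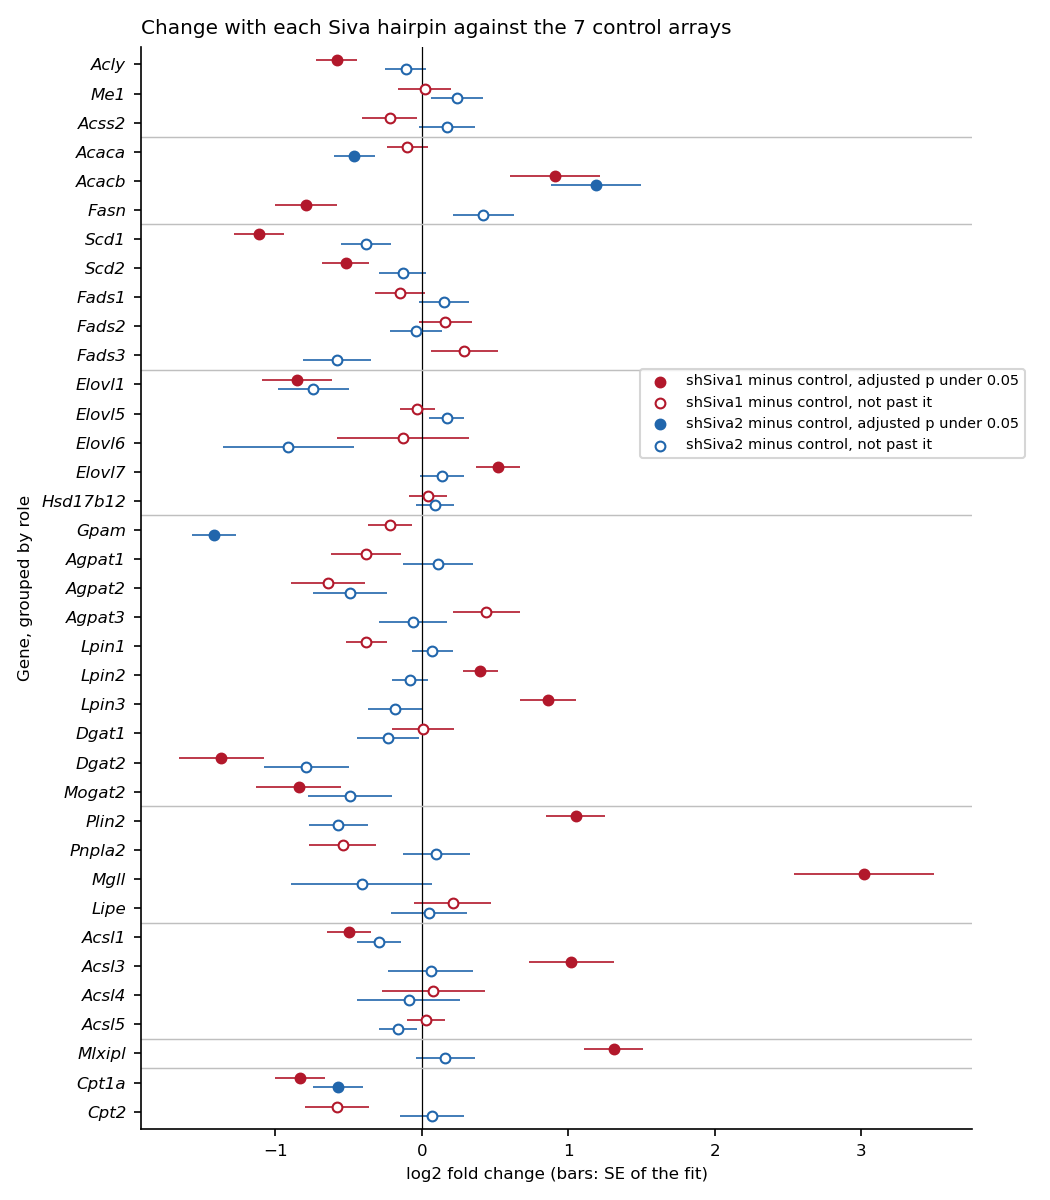
Log2 change of each tested gene, in rows by role, with shSiva1 (red) and shSiva2 (blue) against the same 7 control arrays. Bars are the SE of the fit and filled points passed an adjusted p of 0.05. Plin2, Mgll, Mlxipl and Lpin3 are filled to the right in red only, and Gpam to the left in blue only; the fitted value of Mgll is not a measured fold, since no control array was above background.

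Fasn, fatty acid synthase, fell with shSiva1 and not with shSiva2. In LSZ2, Fasn read 0.56 with shGFP, 0.75 and 1.03 with shLacZ, 0.12 and 0.47 with shSiva1, and 1.31 and 1.20 with shSiva2. Fasn in LSZ4 read 1.64 and 1.68 with shGFP, 0.76 and 1.37 with shLacZ, −0.08 and 0.65 with shSiva1, and 1.51 and 1.99 with shSiva2. All 4 shSiva1 arrays lay below every control of their line, and 3 of 4 shSiva2 arrays lay above every one. The change was −0.79 (SE 0.21, limma adjusted p = 0.0137) with shSiva1 and 0.42 (SE 0.21, adjusted p = 0.25) with shSiva2. The hairpins differed by 1.21 (SE 0.24, limma adjusted p = 0.00188), so Fasn was 2.32-fold higher with shSiva2. Without LSZ4 shSiva1 replicate 1 the fall with shSiva1 missed the threshold (limma adjusted p = 0.071). Its probe is at chr11:120667666-120667725.

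Acly, ATP citrate lyase, which supplies acetyl-CoA to Fasn, also fell with shSiva1, by 0.58 (SE 0.14, limma adjusted p = 0.00781), and read −0.11 against control with shSiva2. Its difference between the hairpins, 0.47 (SE 0.16, limma adjusted p = 0.0514), was not called. Acss2 and Me1, sources of acetyl-CoA and NADPH, were not called with either hairpin. Acaca, the cytosolic acetyl-CoA carboxylase, was called with shSiva2. In LSZ2, Acaca read 4.66 with shGFP, 4.64 and 4.70 with shLacZ, 4.42 and 4.57 with shSiva1, and 4.32 and 4.22 with shSiva2. Acaca in LSZ4 read 4.23 and 4.18 with shGFP, 4.64 and 4.54 with shLacZ, 4.46 and 4.27 with shSiva1, and 4.11 and 3.61 with shSiva2. All 4 shSiva2 arrays lay below every control of their line. The change was −0.46 (SE 0.14, limma adjusted p = 0.0408), and −0.10 with shSiva1. Set directly against shSiva1, Acaca with shSiva2 read −0.36 (SE 0.16, limma adjusted p = 0.127), so no difference between the hairpins was called. As single arrays were left out, the Acaca call with shSiva2 was kept only without LSZ4 shGFP replicate 1, LSZ4 shGFP replicate 2, LSZ4 shLacZ replicate 1 or LSZ4 shSiva1 replicate 1. It was lost without any of the other 11 arrays. Quantile scaling, normexp background correction and the mean of all probes also lost it (limma adjusted p = 0.183, 0.178 and 0.105). Another Acaca probe read 0.10 with shSiva1. The probe used lies at chr11:84215093-84215152.

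Both Scd desaturases of the group fell with shSiva1. Scd1 fell by 1.11 (SE 0.17, limma adjusted p = 0.000217), to 46.5% of control, and read −0.38 (SE 0.17, adjusted p = 0.183) with shSiva2, which did not pass. The hairpins differed by 0.73 (SE 0.19, limma adjusted p = 0.0127), a call lost without LSZ2 shSiva1 replicate 1 (adjusted p = 0.0515). Scd2, the desaturase found in most tissues, fell by 0.52 with shSiva1 (SE 0.16, limma adjusted p = 0.0254). In LSZ2, Scd2 read 7.68 with shGFP, 7.69 and 7.95 with shLacZ, 7.17 and 7.55 with shSiva1, and 7.66 and 7.59 with shSiva2. Scd2 in LSZ4 read 8.62 and 8.46 with shGFP, 7.85 and 8.21 with shLacZ, 7.48 and 7.85 with shSiva1, and 8.16 and 8.17 with shSiva2. With shSiva1, 3 of 4 arrays were below every control of their line. The Scd2 call was lost without LSZ2 shLacZ replicate 2, LSZ2 shSiva1 replicate 1 or LSZ4 shSiva1 replicate 1. It was also lost with quantile scaling, at −0.15 (limma adjusted p = 0.341), and with the group as a random block, at −0.51 (adjusted p = 0.0675). Scd2 was read at chr19:44381024-44381083. Fads1 and Fads2, which desaturate polyunsaturated fatty acids, were not called with either hairpin. The Fads2 probe used read 0.16 with shSiva1 and −0.04 with shSiva2. Another Fads2 probe, well above background on all 15 arrays, read 0.77 and 0.24.

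Elongation genes were mixed. Elovl1 fell by 0.85 with shSiva1 (SE 0.24, limma adjusted p = 0.0185), lost without LSZ4 shSiva1 replicate 1 (adjusted p = 0.095), and read −0.74 (SE 0.24, adjusted p = 0.0626) against control with shSiva2. Its difference between the hairpins, 0.11 (SE 0.27, limma adjusted p = 0.809), was not called. Elovl7 rose by 0.52 with shSiva1 (SE 0.15, limma adjusted p = 0.017), lost without LSZ4 shSiva1 replicate 1. Elovl5, Elovl6 and Hsd17b12 were not called.

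Gpam, the mitochondrial acyltransferase that begins glycerolipid synthesis, had the smallest p of the 37 genes with shSiva2. In LSZ2, Gpam read −1.52 with shGFP, −1.56 and −1.48 with shLacZ, −1.51 and −1.34 with shSiva1, and −2.62 and −2.75 with shSiva2. Gpam in LSZ4 read −0.86 and −0.81 with shGFP, −1.25 and −0.80 with shLacZ, −1.59 and −1.28 with shSiva1, and −2.57 and −2.56 with shSiva2. Every shSiva2 array, from −2.75 to −2.56, lay below every other array, of which the lowest was −1.59. The change was −1.42 (SE 0.15, limma adjusted p = 1.78e-05), to 37.4% of control, against −0.22 (SE 0.15, adjusted p = 0.288) with shSiva1. The hairpins differed by −1.20 (SE 0.17, limma adjusted p = 0.000109). Gpam was read at chr19:55143274-55143333.

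The later steps of glycerolipid assembly moved with shSiva1 in both directions. Dgat2 fell by 1.37 (SE 0.29, limma adjusted p = 0.00273), to 38.6% of control, and read −0.79 (SE 0.29, adjusted p = 0.0911) with shSiva2, which did not pass. Its difference between the hairpins, 0.58 (SE 0.32, limma adjusted p = 0.241), was not called. Mogat2, which acylates monoglyceride, fell by 0.84 (SE 0.29, limma adjusted p = 0.0444), a call kept only without LSZ2 shGFP replicate 1, LSZ4 shLacZ replicate 1, LSZ2 shSiva1 replicate 2 or LSZ4 shSiva2 replicate 2. Of the lipins, which make diacylglycerol, Lpin2 and Lpin3 went the other way, while Lpin1 read −0.38 (limma adjusted p = 0.0602) with shSiva1. Lpin3 rose by 0.86 (SE 0.19, limma adjusted p = 0.00375) and Lpin2 by 0.40 (SE 0.12, adjusted p = 0.0218), and both were lower with shSiva2 than with shSiva1, by −1.05 (SE 0.21, limma adjusted p = 0.00228) and −0.49 (SE 0.13, adjusted p = 0.0172). The Lpin2 calls were lost without LSZ2 shSiva1 replicate 2 or LSZ4 shSiva1 replicate 2 against control, and without LSZ2 shSiva2 replicate 2 between the hairpins. Lpin1, Agpat1, Agpat2, Agpat3 and Dgat1 were not called with either hairpin.

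Plin2, a coat protein of lipid droplets, rose with shSiva1 and read below the controls with shSiva2. In LSZ2, Plin2 read 5.0 with shGFP, 5.10 and 5.31 with shLacZ, 6.23 and 6.67 with shSiva1, and 4.81 and 4.92 with shSiva2. Plin2 in LSZ4 read 6.34 and 6.38 with shGFP, 5.49 and 6.23 with shLacZ, 6.65 and 7.22 with shSiva1, and 5.09 and 5.47 with shSiva2. All 4 shSiva1 arrays lay above every control of their line and all 4 shSiva2 arrays below. The change was 1.05 (SE 0.20, limma adjusted p = 0.0015) with shSiva1 and −0.57 (SE 0.20, adjusted p = 0.0847) with shSiva2. The hairpins differed by −1.62 (SE 0.23, limma adjusted p = 0.000102), so shSiva2 left 32.5% of the shSiva1 level. Plin2 was read at chr4:86302847-86302906.

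Mgll, the lipase that finishes triglyceride breakdown by splitting monoglyceride, was measured only with shSiva1. In LSZ2, Mgll read −6.10 with shGFP, −6.78 and −7.23 with shLacZ, −5.13 and −4.24 with shSiva1, and −6.26 and −7.40 with shSiva2. Mgll in LSZ4 read −4.59 and −5.78 with shGFP, −6.81 and −6.42 with shLacZ, −2.06 and −1.82 with shSiva1, and −6.54 and −6.74 with shSiva2. It was well above background on 4 of 4 shSiva1 arrays and on none of the 7 control or 4 shSiva2 arrays. With shSiva1 it was at least 6.05-fold higher than in controls (limma adjusted p = 0.000308) and at least 8.13-fold higher than with shSiva2 (adjusted p = 0.000286). Its probe was bright enough to be tested through the 4 shSiva1 arrays alone, so that a gene tested here had to be higher there and its p is no independent support. The bounds set the dim arrays at the lowest signal well above background, or at their own value if higher. The shSiva1 arrays of LSZ4 read higher than those of LSZ2, a difference that was not tested for this hairpin. The other 3 Mgll probes were each well above background on at most 2 arrays. The probe used lies at chr6:88778292-88778351. Pnpla2 and Lipe, the lipases of the earlier steps, were not called in either direction.

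Mlxipl, the E-box factor named above, rose with shSiva1. In LSZ2, Mlxipl read −4.65 with shGFP, −4.02 and −4.15 with shLacZ, −2.73 and −2.64 with shSiva1, and −4.14 and −4.28 with shSiva2. Mlxipl in LSZ4 read −3.89 and −4.70 with shGFP, −4.77 and −4.73 with shLacZ, −3.32 and −3.64 with shSiva1, and −4.11 and −4.40 with shSiva2. All 4 shSiva1 arrays lay above every control of their line, and the probe passed the background mark on 5 of 7 controls. The change was 1.31 (SE 0.20, limma adjusted p = 0.000255), or 2.48-fold, against 0.16 (SE 0.20, adjusted p = 0.722) with shSiva2. The hairpins differed by −1.15 (SE 0.23, limma adjusted p = 0.00201). Mlxipl was read at chr5:135613705-135613764.

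**Figure D3:**
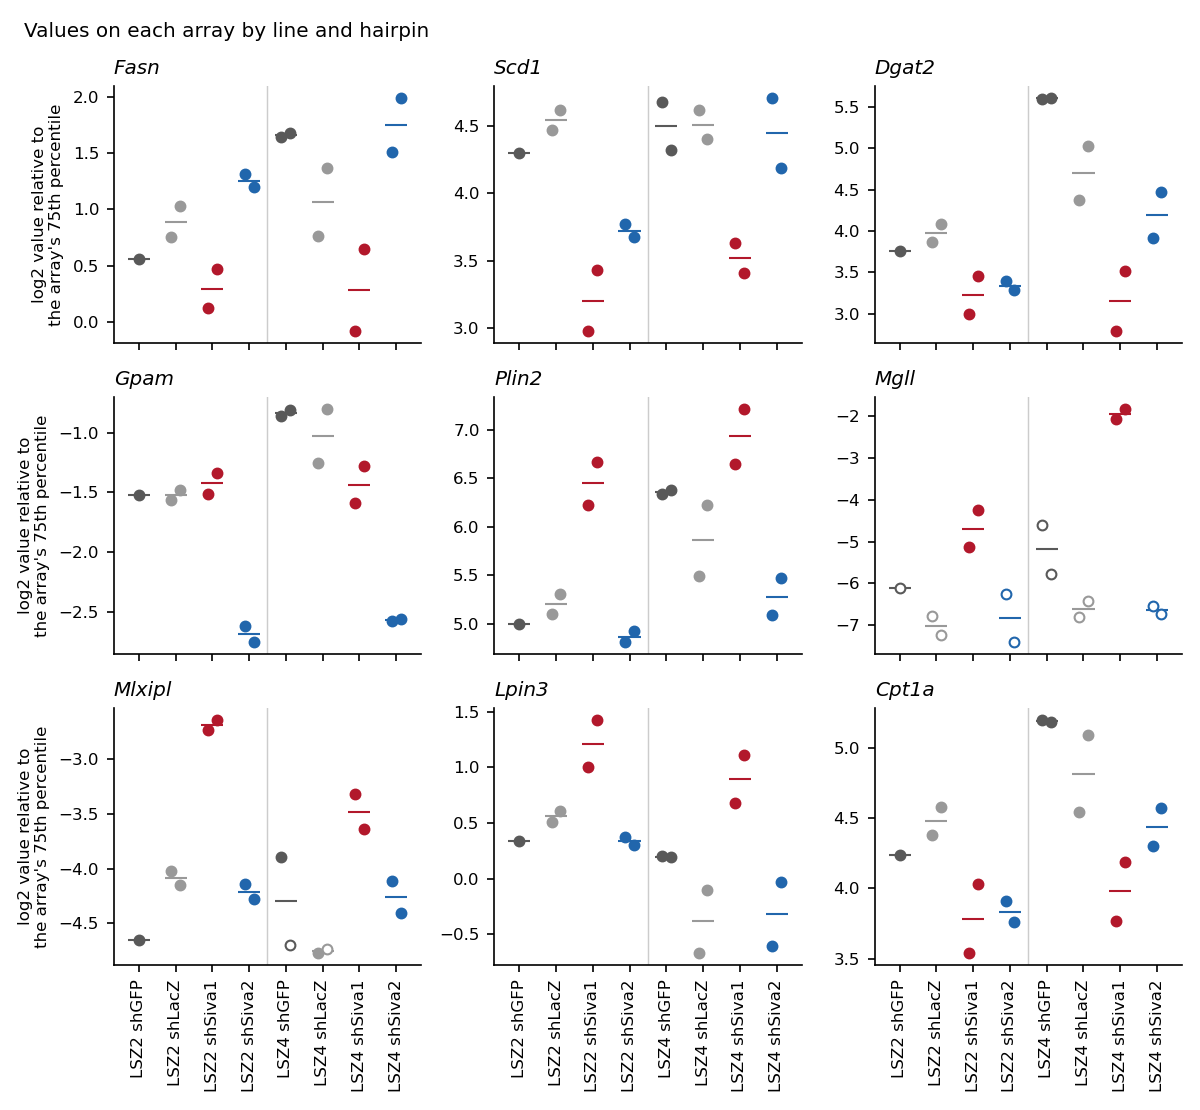
Log2 values of 9 genes on each array, by line and hairpin; points are arrays, bars group means, and open points were not well above background. The shSiva1 arrays stand above the controls of their line for Plin2, Mgll, Mlxipl and Lpin3 and below for Fasn, Scd1, Dgat2 and Cpt1a, and the shSiva2 arrays stand below for Gpam.

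Among the genes that activate fatty acids, Acsl3, found on lipid droplets, rose by 1.02 with shSiva1 (SE 0.29, limma adjusted p = 0.0185), and Acsl1 fell by 0.50 (SE 0.15, adjusted p = 0.0256). Both calls were lost without LSZ4 shSiva1 replicate 1, and that of Acsl1 also without LSZ2 shSiva1 replicate 1. Acsl4 and Acsl5 were not called. Cpt1a fell with both hairpins, by 0.83 (SE 0.17, limma adjusted p = 0.00252) with shSiva1 and 0.57 (SE 0.17, adjusted p = 0.0382) with shSiva2. The call with shSiva2 was kept only without LSZ2 shGFP replicate 1, LSZ4 shLacZ replicate 1, LSZ2 shSiva1 replicate 2 or LSZ4 shSiva1 replicate 1. Cpt2 read −0.58 and 0.07, neither called. Acacb rose with both, by 0.91 (SE 0.31, limma adjusted p = 0.0407) and 1.19 (SE 0.31, adjusted p = 0.0189). The rise with shSiva1 was lost without LSZ2 shGFP replicate 1, LSZ2 shLacZ replicate 1, LSZ4 shLacZ replicate 2, LSZ2 shSiva1 replicate 1 or 2, LSZ4 shSiva1 replicate 2 or LSZ2 shSiva2 replicate 1, and that with shSiva2 without either shSiva2 array of LSZ4. The remaining difference between hairpins was in Fads3, of the desaturase family, at −0.87 (SE 0.25, limma adjusted p = 0.0254), lost without LSZ2 shSiva1 replicate 2, LSZ4 shSiva1 replicate 2, LSZ2 shSiva2 replicate 1 or 2, or LSZ4 shSiva2 replicate 1.

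Some calls held in each of the alternatives run that gave the gene a value: Plin2, Cpt1a, Scd1, Dgat2, Lpin3 and Mlxipl with shSiva1, and Gpam with shSiva2. So did the differences between the hairpins in Plin2, Fasn, Lpin3 and Gpam. The Mgll calls also held, but its probe was tested through the shSiva1 arrays alone, so this is no independent support. The filter that asks for every array gave Mgll and Mlxipl no value. Normexp background correction took the hairpin difference in Mlxipl to an adjusted p of 0.0809. Leaving out LSZ4 shSiva1 replicate 1 alone took the count with shSiva1 from 17 to 10. With shSiva2 it ran from 1 to 8 as single arrays were left out, the highest without LSZ4 shLacZ replicate 1 and the lowest without LSZ4 shSiva2 replicate 1 or LSZ4 shSiva2 replicate 2. It was 2 without any of the other arrays but those with shGFP, LSZ2 shSiva1 replicate 2 and LSZ4 shSiva1 replicate 1. The count of hairpin differences was 14 without LSZ4 shLacZ replicate 1.

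Within single lines few genes passed. In LSZ2, 0 of 37 were called, beside 0.943% of all genes, with 3 at an unadjusted p under 0.05. LSZ4 gave 3, all lower, beside 4.56% of all genes (2.36% higher and 2.2% lower): Dgat2 by −1.48 (SE 0.33, limma adjusted p = 0.0205), Elovl1 by −1.05 (SE 0.27, adjusted p = 0.0379) and Cpt1a by −0.80 (SE 0.21, adjusted p = 0.0421). No line difference in the Siva effect was called for these genes or for any of the 22917, and 0 of the 37 had an unadjusted p under 0.05. For Dgat2 that difference, LSZ2 less LSZ4, was 0.85 (SE 0.48, limma adjusted p = 0.893). The LSZ4 count was 10 without LSZ4 shLacZ replicate 1 and 0 without LSZ4 shGFP replicate 1, LSZ4 shGFP replicate 2, LSZ4 shLacZ replicate 2, LSZ4 shSiva1 replicate 1 or LSZ4 shSiva1 replicate 2. It was 1 without LSZ4 shSiva2 replicate 1 or any LSZ2 array other than shSiva1 replicate 2.

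In all, 7 genes were lower in LSZ2 than in LSZ4 over all hairpins, or 18.9%, beside 21.7% of all genes (7.13% higher and 14.6% lower): Fads1, Dgat1, Elovl1, Dgat2, Cpt1a, Scd2 and Acss2. Their median over the 37 was −0.33, beside −0.23 for all genes. Fads1, a desaturase of polyunsaturated fatty acids, differed most, by −0.87 (SE 0.15, limma adjusted p = 0.00188). In LSZ2, Fads1 read 2.09 with shGFP, 2.39 and 2.62 with shLacZ, 2.28 and 2.69 with shSiva1, and 2.58 and 2.55 with shSiva2. Fads1 in LSZ4 read 3.71 and 3.5 with shGFP, 3.02 and 3.36 with shLacZ, 2.85 and 3.16 with shSiva1, and 3.42 and 3.62 with shSiva2. All 7 LSZ2 arrays lay below every LSZ4 array, with 2.69 the highest in LSZ2 and 2.85 the lowest in LSZ4. The probe lies at chr19:10270530-10270589. Fads1 was not called with Siva knockdown, at 0.00 (SE 0.15) over both hairpins.

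Dgat1, the other enzyme of the last triglyceride step, was lower in LSZ2 by 0.71 (SE 0.18, limma adjusted p = 0.0182). In LSZ2, Dgat1 read 1.13 with shGFP, 1.19 and 1.35 with shLacZ, 1.19 and 1.57 with shSiva1, and 1.09 and 1.04 with shSiva2. Dgat1 in LSZ4 read 2.46 and 2.38 with shGFP, 1.31 and 2.01 with shLacZ, 1.64 and 2.21 with shSiva1, and 1.55 and 1.95 with shSiva2. The lines overlapped, with 5 of 7 LSZ2 arrays below every LSZ4 array. Without LSZ2 shGFP replicate 1 its adjusted p was 0.0512. The Dgat1 call was also lost with the group as a random block (limma adjusted p = 0.0706). With the log2 75th percentile of the array as a covariate it read −0.28 (limma adjusted p = 0.411). The Fads1 call held in both fits. With each line and hairpin reduced to 1 mean, Fads1 read −0.92 and did not pass. That percentile was 791 to 1029 in LSZ2 and 428 to 964 in LSZ4, and Fads1 and Dgat1 each fell with it (Pearson r = −0.89). Line and array brightness therefore cannot be fully told apart. The probe lies at chr15:76333128-76333274. Elovl1 and Dgat2 differed by −0.72 (SE 0.20, limma adjusted p = 0.0289) and −0.79 (SE 0.26, adjusted p = 0.0433). Each of the calls for Elovl1, Dgat2, Cpt1a, Scd2 and Acss2 was lost without any of 9 or more of the 15 arrays, and the count ran from 1, without LSZ2 shGFP replicate 1, to 16, without LSZ4 shSiva1 replicate 1, and 14, without LSZ4 shLacZ replicate 1. It was 2 to 4 without any of the others but LSZ2 shSiva1 replicate 2 and LSZ2 shSiva2 replicate 1.

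Between shGFP and shLacZ 0 of 37 were called, beside 0.00436% of all genes, and 2 had an unadjusted p under 0.05 (limma). The shLacZ cells had no puromycin and another vector. Elovl6, which lengthens palmitate, read −0.90 (SE 0.51, limma adjusted p = 0.352), and Mgll, at background level in both groups, gives no fold.

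Values of many of the genes followed the brightness of the array. Over the 15 arrays, 4 of the 37 rose and 21 fell with the log2 of its 75th percentile (permutation test, adjusted over all genes), or 67.6%, beside 67.2% of all genes, and the percentile is part of every value. Elovl6 rose with brightness (Pearson r = 0.86, Spearman rho = 0.88, adjusted permutation p = 0.00022 and 0.00035), with r = 0.74 within LSZ2, 0.91 within LSZ4 and 0.85 without the 2 arrays farthest from the median, both shGFP in LSZ4. Dgat2 fell with it (r = −0.78, rho = −0.71, adjusted permutation p = 0.0018 and 0.0086), with 0.10 within LSZ2, −0.75 within LSZ4 and −0.55 without those arrays. Scd1, Plin2, Gpam and Mgll gave r of −0.32, −0.34, −0.24 and −0.10, with adjusted permutation p from 0.26 to 0.77. Other genes called above did fall with brightness. Fasn, Cpt1a, Elovl1 and Scd2 gave r of −0.76, −0.73, −0.81 and −0.87, with adjusted permutation p from 0.00016 to 0.0046. The part of brightness in the changes was not tested apart from a fit with it as a covariate, which called 15 genes in the pooled comparison, with 6692 of all 22917 genes called, against 2286 without it.

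**Figure D4:**
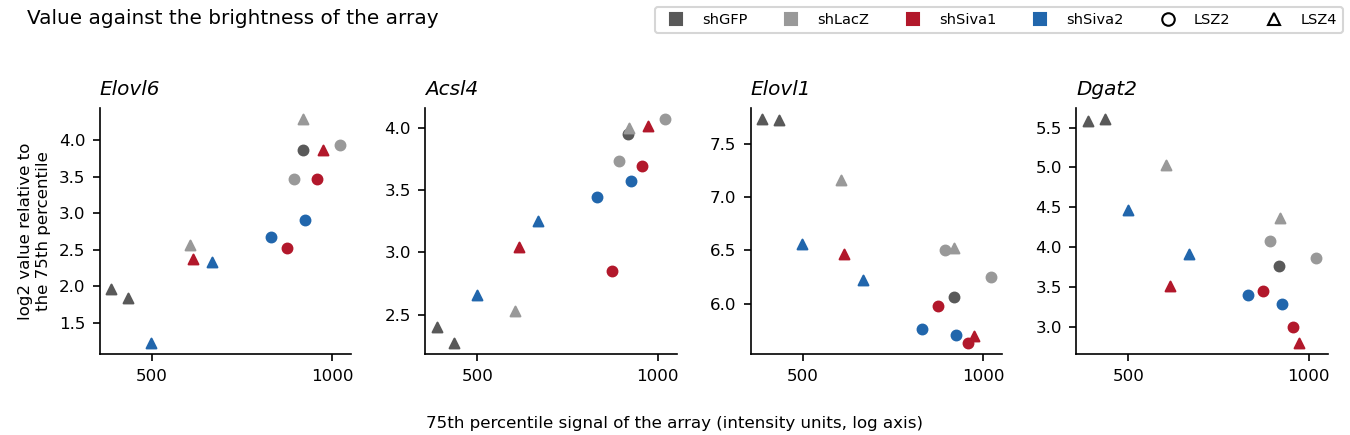
Log2 value of 4 genes against the 75th percentile signal of each array on a log axis; colours are hairpins and shapes lines. Elovl6 and Acsl4 rise with brightness, and Elovl1 and Dgat2 fall, with the LSZ4 shGFP arrays at the dim end.

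Genes around the pathway were read from lists of its known parts, without a test of the list. Of 25 regulators of lipid synthesis tested, 2 changed over both hairpins, both lower, or 8%, beside 9.98% of all genes. The median of the list was −0.21, beside −0.12 for all genes. Nr1h3, a liver X receptor that senses oxysterols, fell by 0.77 (SE 0.18, limma adjusted p = 0.0124), and Pparg, the nuclear receptor of fat storage, by 0.63 (SE 0.17, adjusted p = 0.0283). With shSiva1 2 rose and 5 fell, or 28%, beside 25.9% of all genes, and with shSiva2 0 rose and 2 fell, or 8%, beside 12.2%. Pparg fell by 0.99 (SE 0.12, limma adjusted p = 3.22e-05) with shSiva1.

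Of 37 further synthesis, glycerolipid and droplet genes, 2 rose and 4 fell over both hairpins, or 16.2%, beside 9.98% of all genes. Their median was −0.24, beside −0.12 for all genes. Plin5, a droplet coat protein, fell by 1.60 (SE 0.30, limma adjusted p = 0.00368), and Cideb and Cidec, of the family that fuses droplets, by 1.30 (SE 0.21, adjusted p = 0.00127) and 1.10 (SE 0.33, adjusted p = 0.0433). Cidea, of the same family, and Hacd4, a dehydratase of elongation, passed the background mark on 5 of 8 shSiva arrays and 0 of 7 controls. They were at least 3.5-fold and at least 3.34-fold higher with the Siva hairpins (limma adjusted p = 0.0325 and 0.00501). Both were tested through shSiva arrays alone, so these p-values are no independent support. They are the 2 that rose in the 16.2%, and both are among the 37 genes behind the other shares of this list. With shSiva1, where each passed the mark on 4 of 4 arrays, the bounds were 8.33-fold and 7.05-fold, and with shSiva2, at 1 of 4, they were 1.47-fold and 1.58-fold. With shSiva1 5 rose and 11 fell, or 43.2%, beside 25.9% of all genes, and with shSiva2 1 rose and 6 fell, or 18.9%, beside 12.2%. The hairpins differed for 18 of the 37 genes, or 48.6%, beside the 19.5% of all genes.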

How the data were processed

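Total RNA, 200 ng per sample per the labels' protocols, was labelled with Cy3 and hybridised to Agilent 1-colour mouse arrays. The scanner files hold spot intensity, and per the file headers the software was Feature Extraction 10.7.3.1 and probe positions are on mm9. The processed signal in them is already background-subtracted by the authors. The deposited value matrix holds log2 values; set against the scanner files it matches the log2 signal less the array's 75th percentile, centred on each probe's median, and it was used as an alternative only. The authors' own test is not given in the sources used here.

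Control spots and outlier-flagged spots were left out, spots of a probe averaged, and log2 processed signal reduced by the array's 75th percentile. Of 55681 probes, 32198 were tested: those with the well-above-background flag on 4 or more arrays and no value on 3 or fewer. Symbols were updated through the RefSeq accession for 26582 probes and 29099 kept the file's name. A gene is its probe with the highest mean. limma 3.58.1 (R 4.3.3, version 1.17.8 of data.table) was fitted over all 15 arrays with 1 spread per gene, which supplies the spread for LSZ2 shGFP, a lone array taken to vary as the other groups do. P-values were adjusted by Benjamini-Hochberg over 22917 genes, with a threshold of 0.05. Correlations used 100000 permutations (Python 3.11.15, scipy 1.17.1) over the 22892 genes with no missing value. The fits were tested on simulated data.

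The 40 genes and the related lists were chosen with earlier results of these data known. Values on each array are given for Fasn, Acaca, Scd1, Scd2, genes called in the pooled comparison and the 4 called genes with the smallest p in every other. Of related lists, up to 3 rises and 3 falls called in the pooled comparison are named. A further gene of these lists is not reported here. Other genes named, and the promoter motifs, were picked after their values were seen. For shGFP, numbered 1 and 2 in the labels, replicates of 1 hairpin were assumed. Same-numbered replicates deviated together in some pairs of groups and not in others (r from −0.21 to 0.73, median 0.23, over 21 pairs). The labels do not say that they are pairs, so they were not treated as such. Replicate arrays correlated at 0.979 to 0.996, with 0 identical values. Alternatives covered scaling, background correction, filters, probe summary, blocks, control hairpin and leaving out each array. Where a probe lies within its gene was not looked up.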

Additional observations from a re-analysis of the deposited data

How the results depend on the processing

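Counts of called genes among the 37 depended on scaling, spread model and single arrays. The cause was not tested. Median scaling, the authors' value table, the filter on all arrays and the mean of all probes gave counts within 1.5 times of those reported, in each comparison they were run for. With quantile scaling the count was 2 in LSZ2, 8 with shSiva2 and 14 between the Siva hairpins, and the line difference of Scd2 turned to 0.05. Normexp background correction with an offset of 50 gave 3 in the pooled comparison, 1 with shSiva2 and 3 between the lines. Without a filter on dim probes LSZ4 gave 1 and shSiva2 gave 2. The replicate number as a block gave 7 with shSiva2, and changed no other count by over 1.5 times. The labels do not say whether the numbers pair the samples. The group as a random block gave 0 pooled, 0 in LSZ4, 11 with shSiva1, 2 with shSiva2 and 1 between the lines. Reducing each line and hairpin to 1 mean gave 0 pooled, 0 in LSZ4, 7 with shSiva1, 1 with shSiva2 and 0 between the lines. With shGFP as the only control the pooled count was 3, and with shLacZ it was 0, both from fewer arrays. A fit with the log2 75th percentile of the array as a covariate, chosen after seeing the data, gave 15 pooled, 7 in LSZ2, 8 in LSZ4, 14 with shSiva2, 17 between the Siva hairpins and 2 between the lines, and turned the line difference of Dgat2 to 0.01. Leaving out 1 array at a time, the counts ran from 4 to 9 pooled, 0 to 0 in LSZ2, 0 to 10 in LSZ4, 0 to 0 for the difference between lines of the effect, 10 to 21 with shSiva1, 1 to 8 with shSiva2, 7 to 14 between the Siva hairpins, 0 to 0 between the control hairpins and 1 to 16 between the lines. Pooled Fasn ran from −0.33 without LSZ4 shSiva2 replicate 2 to 0.01 without LSZ4 shSiva1 replicate 1. Over all genes, pooled calls numbered 2286 and ranged from 292 with 1 mean per line and hairpin to 6692 with the brightness covariate, with 3789 without LSZ4 shLacZ replicate 1, 958 under the random block and 806 with normexp. Dim probes limit Mgll, Mlxipl, Cidea, Hacd4 and Ehhadh, whose control values lie at or near background. Under the filter that asks for every array, Mgll and Mlxipl were not tested.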

Other observations

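Of 16 genes tested that bring fatty acids into the cell, bind them or sense them, 2 rose and 1 fell over both Siva hairpins, or 18.8%, beside 9.98% of all genes. Their median was −0.12, as for all genes. Vldlr, a receptor for triglyceride-rich lipoproteins, rose by 2.13 (SE 0.47, limma adjusted p = 0.0102), with 3.22 (SE 0.29, adjusted p = 1.4e-06) for shSiva1 and 1.03 (SE 0.29, adjusted p = 0.031) for shSiva2. Slc27a5, a fatty acid transport protein that activates bile acids, rose by 0.79 (SE 0.20, limma adjusted p = 0.0174). Ffar4, a G protein-coupled fatty acid receptor, fell by 2.73 (SE 0.33, limma adjusted p = 0.000109), with both hairpins called. Fabp5, a fatty acid binding protein, differed between the hairpins by −3.13 (SE 0.24, limma adjusted p = 3e-07), at 1.33 (SE 0.21, adjusted p = 0.00029) with shSiva1 and −1.80 (SE 0.21, adjusted p = 4.49e-05) with shSiva2; it was picked after its values were seen.

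Of 35 beta-oxidation genes tested, 3 rose and 2 fell over both hairpins, or 14.3%, beside 9.98% of all genes. Their median was −0.05, beside −0.12 for all genes. Ehhadh, an enzyme of peroxisomal oxidation, Cpt1c, the carnitine palmitoyltransferase known from neurons, and Acox2, the peroxisomal oxidase of branched chains, rose by 1.57 (SE 0.46, limma adjusted p = 0.042), 1.56 (SE 0.43, adjusted p = 0.032) and 1.42 (SE 0.30, adjusted p = 0.00785). Ehhadh passed the background mark on 7 of 8 shSiva arrays and 1 of 7 controls, and Cpt1c on 8 of 8 and 4 of 7, so the fitted change of Ehhadh rests on control values mostly at background and is not a measured fold. Ehhadh could reach the filter only through the shSiva arrays, so its p is no independent support. It is counted among the 3 that rose and in the 14.3%. Abcd3, a peroxisomal fatty acid transporter, fell by 0.48 (SE 0.13, limma adjusted p = 0.0333). With shSiva1 4 rose and 8 fell, or 34.3% of the list, beside 25.9% of all genes. With shSiva2 0 rose and 1 fell, or 2.86%, beside 12.2% of all genes.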
